A study of Mus musculus with 12 samples.

Results

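Grb10, the growth factor receptor-bound adaptor that binds the insulin and IGF1 receptors, was followed with 9 related genes of insulin and insulin-like growth factor (IGF) signaling in mouse neuronal progenitor cells (mNPCs) with 1 disrupted copy of Kmt2a. The 10 genes listed were Grb10, its paralogs Grb7 and Grb14, the receptors Insr and Igf1r, the receptor substrates Irs1 and Irs2, the secreted binding proteins Igfbp2 and Igfbp5, and the ubiquitin ligase Nedd4. They were found by matching Ensembl identifiers to GRCm38 gene symbols in a table of 18911 genes. Of the 10 genes, 9 had a row, and all 9 were among the 17076 genes tested. Grb7 (ENSMUSG00000019312) had no row, so its level is not analysed here. Grb10 was picked because it was lower in Kmt2a+/LSL cells in these same libraries, so its values in every comparison that uses a Kmt2a+/LSL or Kmt2a+/+ library are a description, without a test.

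RNA-Seq of poly-A RNA was performed on 12 mNPC libraries, 3 of each of 4 genotypes, grown as primary cultures from the hippocampus of newborn C57BL/6J pups. Kmt2a+/+ cells were wild type. Kmt2a+/LSL cells carried a loxP-stop-loxP (LSL) cassette in the first intron of 1 Kmt2a copy, which truncates the transcript of that copy. Cells labelled nes-cre+/- carried 1 copy of a Cre recombinase transgene driven by nestin regulatory sequence, which acts in the developing nervous system, and intact Kmt2a. Cells labelled nes-cre+/-Kmt2a+/LSL carried both, so that Cre could remove the stop cassette. All cells were grown in medium with FGF-2 and EGF. The study calls the libraries within a genotype biological replicates. The sources used here do not say whether the 3 libraries of a genotype came from separate litters or cultures, so the p-values below measure only the spread between these libraries.

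Insulin, IGF1 and IGF2 act through a pair of closely related receptor tyrosine kinases, the insulin receptor (Insr) and the IGF1 receptor (Igf1r). The activated receptors phosphorylate the docking proteins Irs1 and Irs2, which recruit PI3 kinase and so activate AKT and mTOR complex 1, a route to growth and nutrient uptake. Grb10 and Grb14 bind the activated receptors through their SH2 and adjoining BPS domains and dampen the signal, Nedd4 can bind Grb10 and ubiquitinate the IGF1 receptor, and IGF binding proteins hold IGFs outside the cell. Grb10 is imprinted: most mouse tissues use the maternal copy, from an upstream promoter, and neurons use the paternal copy from other promoters further downstream. Kmt2a encodes a histone H3 lysine 4 methyltransferase that binds unmethylated CpG-rich DNA.

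The libraries held between 18280008 and 28596919 estimated reads. The deposited values were estimated counts written as whole numbers, given here as CPM (counts relative to library size after TMM scaling). A floor of 3 counts corresponded to between 0.105 and 0.164 CPM, which covers counting error only. The targeted gene Kmt2a stood at 166.2 ± 0.39 CPM (SD, n = 3) in Kmt2a+/LSL, against 289.8 ± 9.9 in wild-type cells, 297.4 ± 13.7 in nes-cre+/- cells and 272.1 ± 12.7 in nes-cre+/-Kmt2a+/LSL cells. Kmt2a+/LSL was at 57.3% of Kmt2a+/+, while the other 3 genotypes overlapped, so the Kmt2a level checks only the Kmt2a+/LSL labels. The 10 progenitor markers summed to between 8216 and 15990 CPM in each library (at most 11420 without Kmt2a+/+ replicate 1), and the 8 neuron markers to between 1016 and 1917 CPM (at most 1715 without it). Map2 alone gave 979.8 to 1874 CPM of the neuron sum, while Tubb3 was at most 28.19 CPM, Dcx at most 19.75, and Stmn2 and Neurod1 near 0. Astrocyte markers summed to between 767.5 and 3196 CPM over 6 genes (at least 1207 without it). Of 8 oligodendrocyte lineage markers the sum ran from 1199 CPM, in Kmt2a+/+ replicate 1 (at least 3446 without it), to 5560 CPM, with Mog near 0. Microglia, endothelial, mesenchymal and choroid plexus markers were near 0, with sums of at most 2.08, 5.12, 5.33 and 1.37 CPM. In bulk RNA, fewer cells of a type and less RNA per cell cannot be told apart. Kmt2a+/+ replicate 1 stood apart from the other libraries, and values without it are given beside the member values it moved most.

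Grb10 (ENSMUSG00000020176) lies on chromosome 11, at chr11:11930508-12038683 on the minus strand of GRCm38, with 9 annotated transcripts of which the longest has 5061 bases. RefSeq lists a pair of promoters for it in GRCm38.p6 that lie 9449 bases apart, each taken here as 250 bases before to 50 bases after the transcript start. They are printed because Grb10 is the gene the list was built around and because its alternative promoters differ in CpG content. Bases run 5′ to 3′ on the gene's strand, and capitals mark each CG dinucleotide, a motif that reads the same on both strands.
Grb10 upstream promoter, GRCm38.p6, chr11:12037371-12037670, minus strand: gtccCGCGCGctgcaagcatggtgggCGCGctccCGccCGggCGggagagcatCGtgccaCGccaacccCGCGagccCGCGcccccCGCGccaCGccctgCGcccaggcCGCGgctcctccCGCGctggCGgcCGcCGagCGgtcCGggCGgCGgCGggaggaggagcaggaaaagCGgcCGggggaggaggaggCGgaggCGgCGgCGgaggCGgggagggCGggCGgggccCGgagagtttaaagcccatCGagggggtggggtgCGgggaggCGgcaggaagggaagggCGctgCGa
Grb10 downstream promoter, GRCm38.p6, chr11:12027922-12028221, minus strand: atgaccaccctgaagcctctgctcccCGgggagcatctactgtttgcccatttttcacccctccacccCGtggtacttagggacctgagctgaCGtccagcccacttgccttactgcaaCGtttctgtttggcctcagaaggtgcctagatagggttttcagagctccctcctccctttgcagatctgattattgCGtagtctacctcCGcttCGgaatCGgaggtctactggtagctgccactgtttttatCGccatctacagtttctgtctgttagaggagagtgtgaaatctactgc
Grb14 promoter, GRCm38.p6, chr2:65022717-65023016, minus strand: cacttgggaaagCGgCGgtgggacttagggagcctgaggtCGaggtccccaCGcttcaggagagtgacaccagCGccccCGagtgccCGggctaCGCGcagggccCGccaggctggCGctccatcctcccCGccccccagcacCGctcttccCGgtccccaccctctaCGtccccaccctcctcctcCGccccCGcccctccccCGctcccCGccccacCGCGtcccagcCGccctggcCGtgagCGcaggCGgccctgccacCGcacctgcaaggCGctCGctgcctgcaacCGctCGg
The upstream Grb10 promoter held 45 CG dinucleotides and was 80.0% G or C, a CG count that 1.93% of 32851 RefSeq mouse promoters of the same length reach or exceed. The downstream Grb10 promoter held 9 and was 52.3% G or C, a count reached by 45.78% of promoters. The promoter of the paralog Grb14, shown for comparison, held 30, reached by 11.68%. The median promoter held 7. Of the other members, Igf1r had 48 (reached by 1.22% of promoters), Irs2 41 (3.46%), Irs1 28, and Igfbp5 10 (43.47%), while Nedd4 had promoters with 35 and 13 and Igfbp2 promoters with 18 and 14. A promoter entry was matched for 8 members. The promoter entries do not name the parental copy or tissue that uses them. The gene-level counts of reads sum all transcripts, so they do not show which Grb10 promoter was in use.

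Grb10 was lower in every Kmt2a+/LSL library than in any other library. In Kmt2a+/+ its level was 211.0, 181.4 and 166.7 CPM in replicates 1, 2 and 3. In Kmt2a+/LSL it was 78.55, 85.53 and 63.51 CPM. In nes-cre+/- it was 187.5, 199.7 and 224.3 CPM, and in nes-cre+/-Kmt2a+/LSL it was 192.7, 177.0 and 207.2 CPM. The highest Kmt2a+/LSL library stood at 51.3% of the lowest of the other 9, and the 3 genotypes outside Kmt2a+/LSL overlapped one another. These levels rested on deep counts, from 1474 to 2106 reads in the Kmt2a+/LSL libraries and from 3547 to 5646 reads in the others.

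**Figure D1:**
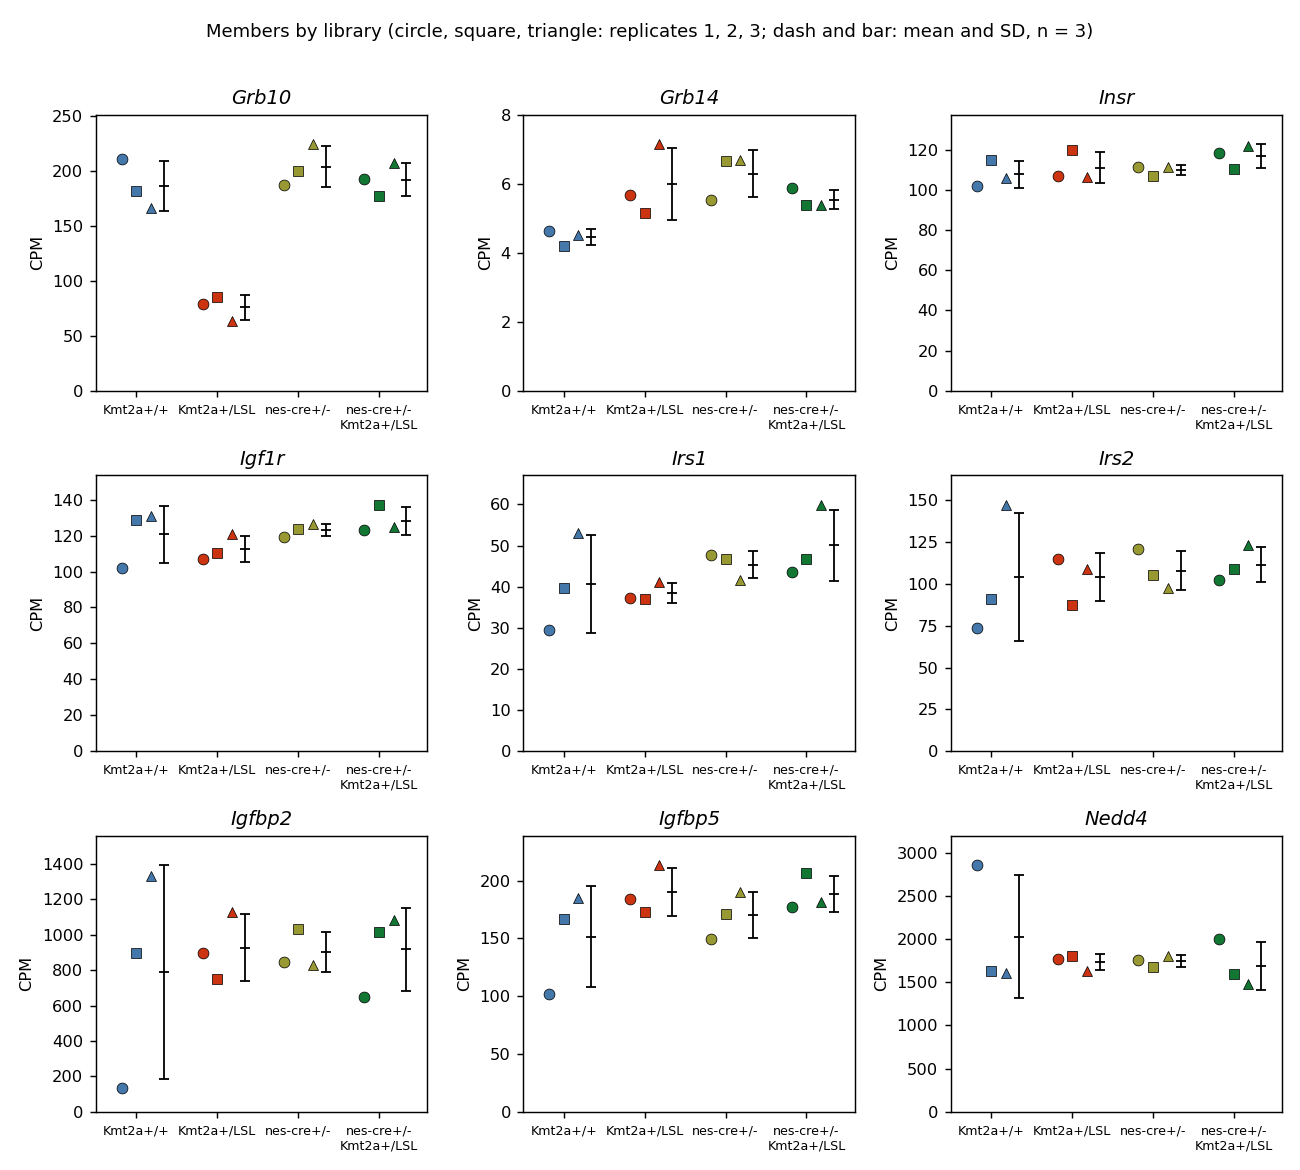
Level of each of the 9 measured genes in each of the 12 libraries, in CPM on linear axes that start at 0 and differ between genes. Circles, squares and triangles are replicates 1, 2 and 3, and the dash and bar are the mean and SD (n = 3). The 3 Kmt2a+/LSL libraries of Grb10 sit between 63.51 and 85.53 CPM, below all others, and Kmt2a+/+ replicate 1 lies far below the rest for Igfbp2 and above them for Nedd4.

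The mean Grb10 level in Kmt2a+/LSL was 75.87 ± 11.25 CPM (SD, n = 3) against 186.4 ± 22.5 in Kmt2a+/+, or 40.7% of it, and 39.1% of the mean of the other 9 libraries, 194.2 ± 18.19 CPM. On the log2 scale the fitted Grb10 difference between Kmt2a+/LSL and Kmt2a+/+ was -1.30 (SE 0.17), and the one for nes-cre+/-Kmt2a+/LSL against Kmt2a+/LSL was 1.34 (SE 0.17). Both fold changes use the libraries on which Grb10 was chosen. Marker genes of other cell types were read in the same comparisons. Of 8 neuron markers 6 were lower in Kmt2a+/LSL than in Kmt2a+/+ (median log2 fold change -0.30) and 6 higher in nes-cre+/-Kmt2a+/LSL than in Kmt2a+/LSL (median 0.27). Of 6 astrocyte markers, 3 were higher and 3 lower in the first comparison and all 6 lower in the second (median -0.40), and 7 of 8 oligodendrocyte lineage markers were higher in the first (median 0.16) and 5 lower in the second (median -0.41). Marker levels in the first comparison depended on Kmt2a+/+ replicate 1. Olig1 was at 705.0, 3078 and 4144 CPM in Kmt2a+/+ replicates 1, 2 and 3, and at 2832, 2574 and 3249 in Kmt2a+/LSL. Map2 was at 1874, 1342 and 979.8 CPM in Kmt2a+/+ and at 1246, 1487 and 1261 in Kmt2a+/LSL. For both genes the direction turned on replicate 1, and the lists hold genes near 0, such as Stmn2, Neurod1 and Mog. None of these markers was called by edgeR, which called 0 of 17076 genes in each comparison. Their part in the Grb10 difference was not tested. Leaving out Kmt2a+/+ replicate 1 left the Grb10 difference between Kmt2a+/LSL and Kmt2a+/+ at -1.20. The comparison that shares no library with the choice of Grb10 is nes-cre+/-Kmt2a+/LSL with nes-cre+/-, the cells with a cassette exposed to Cre against Cre controls. There, Grb10 was at 192.3 ± 15.1 CPM against 203.8 ± 18.8 (SD, n = 3), a log2 fold change of -0.084 with a 95% interval of -0.44 to 0.28 (edgeR quasi-likelihood test, adjusted p = 1). The exact 2-sided permutation test gave p = 0.5, where 3 libraries against 3 cannot go below p = 0.1. A Grb10 difference of the size between Kmt2a+/LSL and Kmt2a+/+ lies outside that interval. Between nes-cre+/- and Kmt2a+/+, the genotypes with and without the transgene on intact Kmt2a, where litter and transgene cannot be told apart, the Grb10 log2 difference was 0.13 (SE 0.16), and 0.22 (SE 0.14) without Kmt2a+/+ replicate 1.

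Grb14 (ENSMUSG00000026888, chr2:64912476-65024987, minus strand), a paralog that also binds and inhibits the insulin receptor, was the least abundant member, with between 78 and 169 reads a library. Its level was 4.64, 4.214 and 4.531 CPM in Kmt2a+/+ and 5.697, 5.158 and 7.153 CPM in Kmt2a+/LSL. It was 5.528, 6.67 and 6.714 CPM in nes-cre+/-, and 5.876, 5.394 and 5.38 CPM in nes-cre+/-Kmt2a+/LSL. All 3 Kmt2a+/+ libraries lay below the other 9, unlike for Grb10, but the share of all genes with this pattern was not counted. Relative to Kmt2a+/+, Kmt2a+/LSL cells were at a log2 fold change of 0.43 (SE 0.22) for Grb14, with a 95% interval of -0.047 to 0.90 (edgeR, adjusted p = 1). Against Kmt2a+/+, nes-cre+/- cells differed by 0.50, with an interval of 0.024 to 0.97, an unadjusted edgeR p of 0.0412 and an adjusted p of 1. The LSL allele under Cre gave -0.18 (interval -0.66 to 0.29). A Grb14 increase of up to 0.90 in Kmt2a+/LSL therefore lies within the interval, and a fall of the size seen for Grb10 lies outside it.

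Both receptors varied little. Insr (ENSMUSG00000005534, chr8:3122061-3279617, minus strand) was at 101.9, 115.1 and 106.1 CPM in Kmt2a+/+ and at 106.7, 120.0 and 106.2 CPM in Kmt2a+/LSL. It was at 111.3, 106.9 and 111.6 CPM in nes-cre+/- and at 118.6, 110.5 and 121.7 CPM in nes-cre+/-Kmt2a+/LSL. The 4 genotypes overlapped, and the highest library was 1.19 times the lowest, the narrowest range of any member. For Insr the LSL allele without Cre gave a log2 fold change of 0.043 (interval -0.24 to 0.33), and with Cre it gave 0.089 (interval -0.20 to 0.38; edgeR, adjusted p = 1 for both). Igf1r (ENSMUSG00000005533, chr7:67952827-68233668, plus strand) stood at 102.2, 128.8 and 131.0 CPM in Kmt2a+/+ and at 107.0, 110.3 and 120.8 CPM in Kmt2a+/LSL. In nes-cre+/- its values were 119.4, 123.8 and 126.3 CPM, and in nes-cre+/-Kmt2a+/LSL they were 123.0, 137.1 and 124.7 CPM. The 3 nes-cre+/-Kmt2a+/LSL libraries lay above the 3 Kmt2a+/LSL libraries for Igf1r, by 0.19 on the log2 scale, but the interval of -0.13 to 0.50 includes 0. Kmt2a+/LSL against Kmt2a+/+ gave -0.099 (interval -0.42 to 0.22), and -0.21 (interval -0.43 to 0.019) without Kmt2a+/+ replicate 1. In mNPCs with less Grb10, the mRNA of neither receptor was called, where edgeR called 0 of 17076 genes in Kmt2a+/LSL against Kmt2a+/+.

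Irs1 (ENSMUSG00000055980, chr1:82233101-82291416, minus strand), the first of the docking proteins, was at 29.44, 39.56 and 53.11 CPM in Kmt2a+/+ and at 37.18, 37.0 and 41.15 CPM in Kmt2a+/LSL. It was at 47.76, 46.65 and 41.71 CPM in nes-cre+/- and at 43.67, 46.67 and 59.87 CPM in nes-cre+/-Kmt2a+/LSL. Its 3 Kmt2a+/LSL libraries lay below all 6 Cre libraries and inside the spread of Kmt2a+/+. The highest of them, at 41.15 CPM, was close to the lowest Cre library, at 41.71 CPM. The share of all genes with this pattern was not counted. The log2 fold change was -0.083 for Kmt2a+/LSL against Kmt2a+/+ (interval -0.56 to 0.39, and -0.27 with an interval of -0.63 to 0.088 without Kmt2a+/+ replicate 1) and 0.38 for nes-cre+/-Kmt2a+/LSL against Kmt2a+/LSL (interval -0.094 to 0.86; edgeR, adjusted p = 1 for both). Without Kmt2a+/+ replicate 1, which lies outside that comparison but enters the shared estimate of spread, the latter was 0.37 (interval 0.045 to 0.69), with an unadjusted edgeR p of 0.0291 and an adjusted p of 1, beside 3.89% of all genes under 0.05. Against the mean of the other 3 genotypes Kmt2a+/LSL stood at -0.23 (interval -0.63 to 0.16), and at -0.29 (interval -0.57 to -0.018, before any adjustment) without Kmt2a+/+ replicate 1. Irs1 values carry a limit: 30.656% of the 31-base words of its transcripts also occur in another gene, nearly all in Gm9747, which overlaps Irs1 on the opposite strand. The sources used here do not say whether strand was kept in counting, so reads of the shared stretch cannot be told apart without it. Gm9747 took between 2.77% and 50.3% of the summed counts of both genes, the highest share in Kmt2a+/+ replicate 1.

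Irs2 (ENSMUSG00000038894, chr8:10984681-11008458, minus strand), the other docking protein, was at 73.94, 91.04 and 147.3 CPM in Kmt2a+/+ and at 114.9, 87.69 and 109.2 CPM in Kmt2a+/LSL. In nes-cre+/- it was at 120.7, 105.1 and 97.85 CPM, and in nes-cre+/-Kmt2a+/LSL at 102.5, 109.2 and 123.2 CPM. The Kmt2a+/+ libraries alone spanned the values of all other Irs2 libraries. The log2 fold change was -0.0029 for Kmt2a+/LSL against Kmt2a+/+, with an interval of -0.52 to 0.52, and 0.049 for the LSL allele under Cre (edgeR, adjusted p = 1 for both). The first of these was -0.20 without Kmt2a+/+ replicate 1 (interval -0.63 to 0.23). Leaving out each library in turn, it ran from -0.20 to 0.33, so the value near 0 depended on more than that library. Of the words of Irs2 transcripts, 2.129% were shared with another gene.

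Igfbp2 (ENSMUSG00000039323, chr1:72824503-72852474, plus strand) and Igfbp5 (ENSMUSG00000026185, chr1:72857932-72874884, minus strand) are neighbours whose annotated ends lie 5.46 kb apart. Igfbp2 was at 135.8, 895.7 and 1329 CPM in Kmt2a+/+ and at 899.4, 752.5 and 1127 CPM in Kmt2a+/LSL. It was at 843.1, 1030 and 829.9 CPM in nes-cre+/- and at 649.7, 1017 and 1084 CPM in nes-cre+/-Kmt2a+/LSL. For Igfbp2, Kmt2a+/+ replicate 1 lay far below every other library: the highest library was 9.79 times the lowest with it and 2.05 times without it. Kmt2a+/LSL minus Kmt2a+/+ on the log2 scale gave 0.23 for Igfbp2 (interval -1.0 to 1.47) with that library and -0.27 (interval -0.80 to 0.26) without it, so its sign rested on 1 library. Igfbp5 was at 102.1, 167.2 and 185.1 CPM in Kmt2a+/+ and at 184.3, 172.9 and 213.2 CPM in Kmt2a+/LSL. In nes-cre+/- its level was 149.8, 171.2 and 190.2 CPM, and in nes-cre+/-Kmt2a+/LSL 177.2, 206.4 and 181.7 CPM. The genotypes overlapped, and the Igfbp5 log2 fold change in Kmt2a+/LSL was 0.33 (interval -0.14 to 0.80) with all Kmt2a+/+ libraries and 0.11 (interval -0.19 to 0.41) without replicate 1. Under Cre the LSL allele gave 0.025 (interval -1.2 to 1.3) for Igfbp2 and 0.15 (interval -0.32 to 0.61) for Igfbp5 (edgeR, adjusted p = 1 for both).

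Nedd4 (ENSMUSG00000032216, chr9:72662346-72749852, plus strand), whose product carries the ubiquitin ligase activity that Grb10 can bring to the IGF1 receptor, lies on the same chromosome as Kmt2a, 27.8 Mb away. Its level was 2851, 1628 and 1601 CPM in Kmt2a+/+ and 1765, 1805 and 1630 CPM in Kmt2a+/LSL. It was 1760, 1673 and 1806 CPM in nes-cre+/- and 2000, 1590 and 1474 CPM in nes-cre+/-Kmt2a+/LSL. Kmt2a+/+ replicate 1 was the highest Nedd4 library, and the other 11 lay within a 1.36-fold range. For Nedd4, Kmt2a+/LSL minus Kmt2a+/+ on the log2 scale was -0.23 (interval -0.73 to 0.27) with that library and 0.10 (interval -0.23 to 0.43) without it. Under Cre it was -0.049 (interval -0.55 to 0.45; edgeR, adjusted p = 1).

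Kmt2a+/+ replicate 1 differed from the other Kmt2a+/+ libraries by amounts that varied between members. Its log2 level minus the mean of Kmt2a+/+ replicates 2 and 3 was -3.01 for Igfbp2, whose transcripts are 62.1% G or C, -0.65 for Irs2 (56.6%), -0.79 for Igfbp5 (50.3%) and -0.64 for Irs1 (50.3%). It was -0.35 for Igf1r (49.4%), -0.12 for Insr (46.8%) and -0.0078 for Kmt2a (50.6%). It was 0.82 for Nedd4 (45.9%) and 0.28 for Grb10 (48.5%). Grb14, with the lowest G or C content of the members (39.4%), differed by 0.085, and genes with nearly equal G or C content, such as Kmt2a and Igfbp5, differed from each other. Over 11622 genes with a mean count of at least 50, the median deviation of this library from its group was 1.1 in the 20% of genes with the lowest G or C content and -1.89 in the 20% with the highest. In the 9 libraries of the other genotypes these medians stayed within -0.21 to 0.40 and -0.42 to 0.29. The part of base composition in the level of any single member was not tested. Grb10 was lower in each Kmt2a+/LSL library than in every library of the other genotypes, which leaving out this library cannot change.

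**Figure D2:**
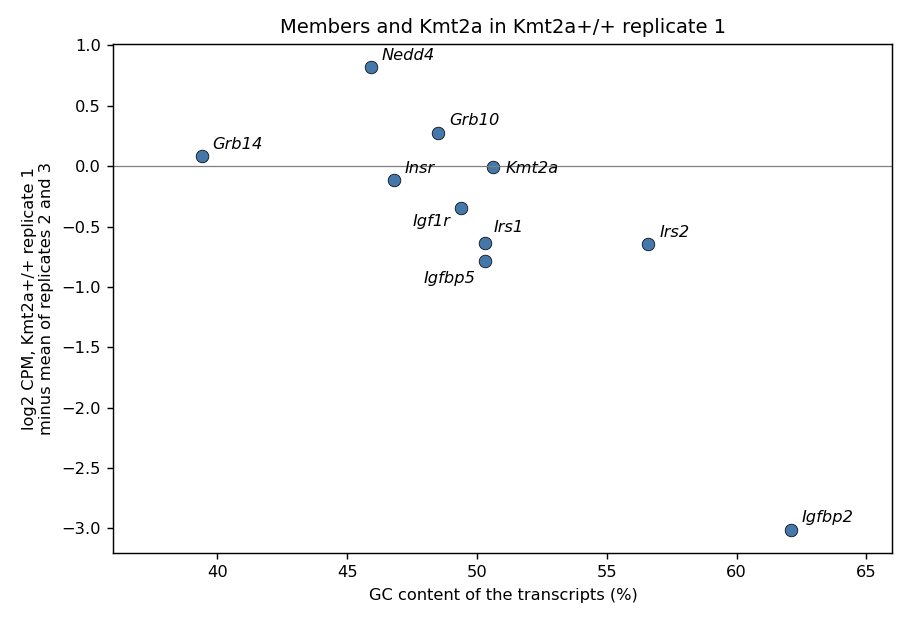
Log2 level in Kmt2a+/+ replicate 1 minus the mean of Kmt2a+/+ replicates 2 and 3, against the G or C content of the transcripts in percent, for the 9 measured genes and Kmt2a. Igfbp2, at 62.1% G or C, lies lowest at -3.01, Nedd4 highest at 0.82, and Grb10 at 0.28.

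Levels of different genes were compared per kilobase of the longest transcript. In nes-cre+/- the order of mean CPM per kb was Igfbp2 at 689, Nedd4 at 318, Grb10 at 40.3, Igfbp5 at 28.4, Irs2 at 17.1, Insr at 11.8, Igf1r at 10.8, Irs1 at 4.96 and Grb14 at 2.25. Grb10 held rank 3 of 9 in Kmt2a+/+, nes-cre+/- and nes-cre+/-Kmt2a+/LSL, at 36.8, 40.3 and 38.0 CPM per kb, and all its libraries lay above those of the next gene. In Kmt2a+/LSL, Grb10 was at 15.0 ± 2.2 CPM per kb (SD, n = 3), rank 5, and its libraries overlapped those of Irs2, at 16.4, and Insr, at 11.9. In Kmt2a+/+ the neighbours in rank Igfbp2 and Nedd4, Igfbp5 and Irs2, Irs2 and Insr, and Insr and Igf1r overlapped and were not separated. In nes-cre+/-Kmt2a+/LSL, Insr and Igf1r overlapped. The order depends on the length used: per kilobase of the median transcript Nedd4 stood above Igfbp2, and Grb10 kept rank 3 in Kmt2a+/LSL too.

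**Figure D3:**
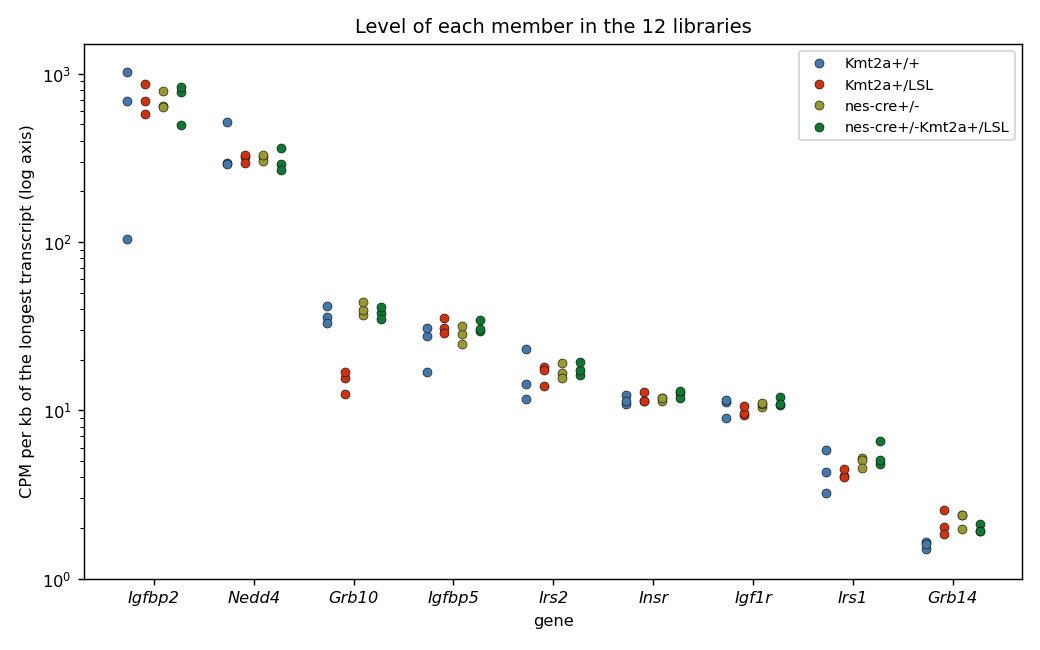
Level per kilobase of longest transcript of the 9 measured genes in the 4 genotypes, in CPM per kb on a log axis, with 1 point per library and a colour per genotype. Grb10 holds rank 3, near 40.3 CPM per kb, except in Kmt2a+/LSL, where it lies at 15.0 among Irs2 and Insr.

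The members other than Grb10 were then set beside all genes tested. In Kmt2a+/LSL against Kmt2a+/+, edgeR's quasi-likelihood test with Benjamini-Hochberg adjustment called 0 of 17076 genes (0.0%) at an adjusted p under 0.05, and 0 of these 8 members. At an unadjusted p under 0.05 it had 114 genes higher and 192 lower, and none of the 8. Without Kmt2a+/+ replicate 1 the share of all genes under that p went from 1.79% to 8.95%, still with none of the 8. Of the 8 members, 4 were higher and 4 lower, with log2 fold changes from -0.23 (Nedd4) to 0.43 (Grb14) and a median of 0.020, beside a median of 0.0011 over all genes. They were again split 4 and 4 without Kmt2a+/+ replicate 1, but the median was -0.097, Irs1 was lowest at -0.27 and Nedd4 was at 0.10. In 1 of the 8, Grb14, the libraries of both groups did not overlap, against 4.05% of all genes. DESeq2 called 7 genes and limma voom 2 in this comparison, none of them among the 8.

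For nes-cre+/-Kmt2a+/LSL against Kmt2a+/LSL, the comparison of the cassette with and without Cre, edgeR likewise called 0 genes (0.0%), with 181 higher and 94 lower at an unadjusted p under 0.05. The 8 members were again split 4 and 4, with a median of 0.031, and in Igf1r and Irs1 the libraries did not overlap, against 7.1% of all genes. These share the Kmt2a+/LSL libraries with the previous comparison, so the values are given side by side. For nes-cre+/- against Kmt2a+/+ the call was also 0 genes (0.0%), with 117 higher and 122 lower before adjustment, and 7 of the 8 members were higher, with a median of 0.10. Without Kmt2a+/+ replicate 1, 2 of the 8 were higher (Grb14 and Nedd4) and 6 lower, with a median of -0.045, so that split rested on 1 library. In that comparison Grb14 had the lowest p, 0.0412 before adjustment, and 1 of the 8 did not overlap, against 4.35% of all genes.

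For nes-cre+/-Kmt2a+/LSL against nes-cre+/-, the only pair of genotypes without that library or any on which Grb10 was chosen, 0 genes were called (0.0%), with 106 higher and 84 lower before adjustment. The 8 members ranged from -0.18 (Grb14) to 0.15 (Igfbp5) with a median of 0.054, and none of the 8 had libraries that did not overlap, against 6.68% of all genes. When Kmt2a+/LSL was set against the mean of the other 3 genotypes, 1 gene was called (0.00586%), and it was Grb10 itself. Since Grb10 was chosen for that difference, nothing is read from the call. The call was lost with a replicate block (0 genes called) and without any single library other than Kmt2a+/+ replicates 1 and 3, while the Grb10 log2 fold change stayed between -1.46 and -1.24. There its log2 fold change was -1.35 (SE 0.15), and the 8 other members lay between -0.23 (Irs1) and 0.17 (Igfbp5), with none past an unadjusted p of 0.05 in the fit of 12 libraries (1, Irs1, without Kmt2a+/+ replicate 1, with an adjusted edgeR p of 1 and beside 2.87% of all genes) and none with libraries outside the range of the other 9, against 0.363% of all genes. The effect of the LSL allele with Cre minus that without Cre gave 0 calls (0.0%), with 189 genes higher and 106 lower before adjustment. For Grb14 this difference was -0.61 (interval -1.3 to 0.059), for Grb10 it was 1.21 (SE 0.23), and none of the 8 passed an unadjusted p of 0.05. Without Kmt2a+/+ replicate 1, Grb14 was at -0.64 (interval -1.3 to -0.025), with an unadjusted edgeR p of 0.0427 and an adjusted p of 0.995, beside 3.31% of all genes under 0.05. Over the 6 comparisons, DESeq2 called between 3 and 10 genes and voom between 0 and 4, with none of the 8 members among them.

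**Figure D4:**
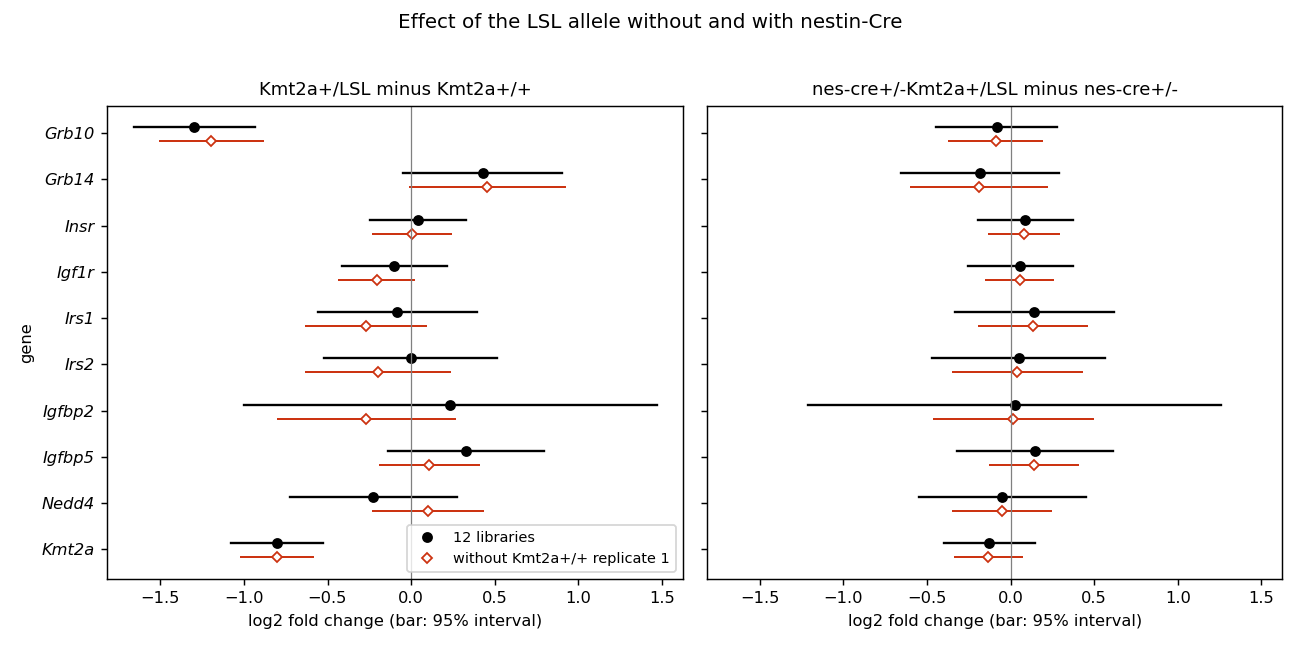
Log2 fold change of each measured member and Kmt2a for Kmt2a+/LSL minus Kmt2a+/+ and for nes-cre+/-Kmt2a+/LSL minus nes-cre+/-, with 95% intervals from the edgeR fit. Filled circles use 12 libraries and open diamonds leave out Kmt2a+/+ replicate 1. Grb10 lies at -1.30 in Kmt2a+/LSL against Kmt2a+/+ and at -0.084 in the comparison of the LSL allele under Cre, and every interval of the other 8 members includes 0.

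A further 76 genes of the pathway were listed by role, and 73 were tested. None of the 73 was called by edgeR in any of the 6 comparisons, and DESeq2 and voom called none either. In Kmt2a+/LSL against Kmt2a+/+, 40 were higher and 33 lower, with a median of 0.011, and only Trib3, a pseudokinase inhibitor of AKT, fell below 0.05 before adjustment. Trib3 was at 0.714 ± 0.258 CPM against 0.163 ± 0.159 (SD, n = 3), with an unadjusted edgeR p of 0.0344 and an adjusted p of 1. Under Cre, 32 were higher and 41 lower with a median of -0.0068, and only the ligand Igf1 fell below it. Igf1 was at 0.122 ± 0.068 CPM against 0.438 ± 0.062 (SD, n = 3), with an unadjusted edgeR p of 0.0423 and an adjusted p of 1. Igf1 also fell below 0.05 against Kmt2a+/LSL (unadjusted edgeR p of 0.0223, adjusted p of 1) and in the difference of the LSL effects (unadjusted edgeR p of 0.0176, adjusted p of 1), where the docking protein gene Irs3 did too (unadjusted edgeR p of 0.0346, adjusted p of 1). Irs3 was at 0 CPM in all Kmt2a+/LSL and nes-cre+/- libraries and at most 0.182 CPM elsewhere, so no fold is given for it. Trib3 in Kmt2a+/+ and Igf1 in nes-cre+/-Kmt2a+/LSL also lay near the floor of 3 counts. Trib3, Igf1 and Irs3 were named after their values were seen. The shares in Kmt2a+/LSL against Kmt2a+/+ and under Cre, 1.37% of the list in each case, sit beside 1.79% and 1.11% of all genes. In nes-cre+/-Kmt2a+/LSL against Kmt2a+/LSL the share was 1.37% beside 1.61% of all genes. In the difference of the LSL effects it was 2.74% beside 1.73%.

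By role, the ligands were almost absent: Igf2, the most abundant, had a median of 0.367 CPM and at most 1.03, and Ins1 and Ins2 had no row. The IGF2 clearance receptor Igf2r had a median of 135.2 CPM, and the binding protein Igfbp3 300.8 CPM, with no row for Igfbp1. Among 15 adaptors, led per kilobase by Crk at 184.2 CPM, 9 were higher and 6 lower in Kmt2a+/LSL than in the mean of the other genotypes, with a median of 0.034. The 10 PI3 kinase and AKT genes, led by the regulatory subunit Pik3r1 at 672.3 CPM, had 6 higher and 4 lower and a median of 0.020. The 15 genes of the TSC and mTOR branch, led by the ribosomal protein Rps6 at 386.8 CPM, had 7 higher and 8 lower and a median of -0.014. Phosphatases and inhibitors had 8 of 11 higher with a median of 0.098. The lipid phosphatase Inppl1 led them per kilobase of the longest transcript, at 258.4 CPM in the median library and 27.36 in Kmt2a+/+ replicate 1. In CPM Phlpp1 was higher, with genotype means from 277.7 to 313.3. FOXO factors and their targets, which AKT restrains, had 8 of 10 lower with a median of -0.088. Sesn1 led them per kilobase of the longest transcript, at 74.35 CPM, while Foxo3 was higher in CPM, with genotype means from 123.6 to 129.8. Sesn3, named after its values were seen, was erratic, from 0 to 23.41 CPM within Kmt2a+/+, from 0 to 3.79 CPM in Kmt2a+/LSL and at 0 in all nes-cre+/-Kmt2a+/LSL libraries, so no fold is given for it. The Grb10 partners Gigyf1, Gigyf2 and Nedd4l had a median of -0.00097, and Gigyf2, which binds the proline-rich part of Grb10, lay between 105.4 and 122.1 CPM in all 12 libraries. No gene in these groups passed an unadjusted p of 0.05 in this comparison.

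**Figure D5:**
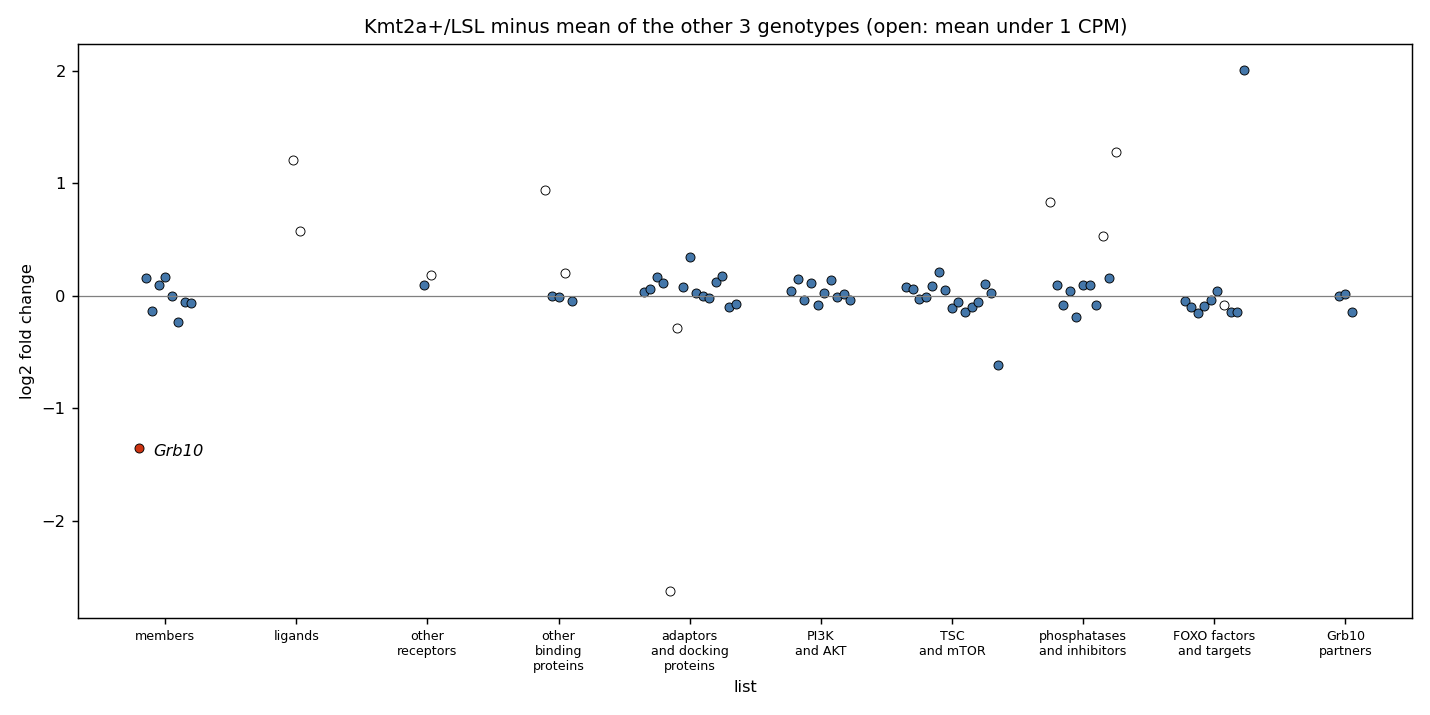
Log2 fold change of each measured member (Grb10 marked) and each tested pathway gene in Kmt2a+/LSL against the mean of the other genotypes, grouped by role, with 1 point per gene and open circles for genes under 1 CPM on average. The medians of the groups with 10 or more genes lie between -0.088 (FOXO factors and targets) and 0.098 (phosphatases and inhibitors), and the FOXO target at the top is Sesn3, which was at 0 in some libraries.

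In Kmt2a+/LSL against Kmt2a+/+ edgeR called 0 of 17076 genes, so neither Grb10 nor the genes on either side of it were called. Ddc, the aromatic amino acid decarboxylase gene, which is imprinted in the embryonic heart, ends 32.4 kb from Grb10 and was at between 1.24 and 2.52 CPM, with a log2 fold change of 0.089 in Kmt2a+/LSL against Kmt2a+/+. Cobl, an actin nucleator gene 198.0 kb on the other side, was at between 0.517 and 2.74 CPM (-0.37). Fignl1, a DNA repair ATPase gene, was at between 12.6 and 59.3 CPM (0.031) and Vwc2 at between 4.13 and 10.4 CPM (-0.38), while Zpbp was at between 0.199 and 1.11 CPM (-0.033) and Ikzf1 at no more than 0.535 CPM. Of these 6 neighbours, 2 were higher and 4 lower in Kmt2a+/LSL, and edgeR called none. The interval for Ddc, -0.68 to 0.86, leaves out a difference of the size of that of Grb10, and the interval for Cobl, -1.5 to 0.74, includes it.

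Across the 12 libraries, the genes whose log2 CPM was most like that of Grb10 among 11676 genes with a mean count of at least 50 were Kmt2a (Pearson r = 0.958), Dmrt3 (0.938), Bcor (0.813), Dtx3l (0.79) and Parp9 (0.782). These are descriptions over 12 libraries that share their genotypes, among them the Kmt2a+/LSL libraries on which Grb10 was chosen. Ranks gave another picture, with a Spearman rho of 0.629 for Kmt2a, 0.636 for Dmrt3, 0.51 for Bcor, 0.923 for Dtx3l and 0.734 for Parp9. Leaving out Kmt2a+/+ replicate 1, Pearson r was 0.957 for Kmt2a and 0.95 for Dmrt3, which kept ranks 1 and 2. Parp9 (0.848, rank 7), Bcor (0.809, rank 11) and Dtx3l (0.777, rank 15) were then no longer among the 5 most alike. Dmrt3, a transcription factor gene of the developing forebrain and spinal cord, had a mean of 5.68 CPM in Kmt2a+/LSL and means of between 13 and 13.6 CPM in the other genotypes. Of the other members, none was among these 5, and Pearson r with Grb10 was 0.365 for Igf1r (0.656 without Kmt2a+/+ replicate 1), 0.283 for Irs1 (0.581 without it), 0.174 for Nedd4 (-0.069 without it), 0.11 for Insr (0.265), -0.055 for Irs2 (0.117), -0.239 for Igfbp2 (-0.0638), -0.253 for Grb14 (-0.191) and -0.377 for Igfbp5 (-0.367).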

How the data were processed

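RNA-Seq was performed by the authors on 12 mNPC libraries. Per the study's methods, reads were pseudoaligned with kallisto (version 0.48.0 in the submitters' processing notes) and summarised per gene with tximport, and the deposited values were estimated counts per gene, rounded to whole numbers. The transcriptome release and the strand setting are not given in the sources used here. The design had assumed plain counts, and the same test was used. The list of members, the pathway, neighbour and marker lists and the tests were chosen with earlier results of these data known.

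A gene was tested if its counts summed to more than 10 and were above 0 in 2 or more libraries (17076 of 18911). TMM scaling and quasi-likelihood F-tests in edgeR 4.0.16 (R 4.3.3) were fitted on genotype over all 12 libraries, with Benjamini-Hochberg adjustment over all genes tested and a threshold of 0.05. The biological coefficient of variation was 0.368. Identifiers were matched to GENCODE M21 (GRCm38), and promoters were taken from RefSeq (GRCm38.p6). Log2 CPM used a prior count of 2. Genes named were the members, Kmt2a, any called pathway gene, the 6 neighbours of Grb10 and the 5 genes most like it. The pathway gene with the highest level per kilobase of the longest transcript in each role was named too. Other pathway genes, such as Trib3, Igf1, Irs3 and Sesn3, were named after their values were seen, and Gigyf1 and Nedd4l only as members of a role group.

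Alternatives were DESeq2 1.42.0 (size factors and Wald test), limma 3.58.1 voom with quality weights, robust dispersion, other filters, fits restricted to the groups compared, a replicate block and leaving out each library. A GC content offset, and DESeq2 and robust fits without Kmt2a+/+ replicate 1, were added after seeing the data. The fits were tested on simulated data first.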

Additional observations from a re-analysis of the deposited data

How the results depend on the processing

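None of the 8 members other than Grb10 was called under any of 22 alternative settings (1008 values, lowest adjusted p 0.553, edgeR, DESeq2 or limma). These 22 leave out the DESeq2 and robust fits without Kmt2a+/+ replicate 1. The signs of the 8 members changed in 76 of the 1008 values, all with a log2 fold change of at most 0.235 in size in the reported fit. Grb10 kept its direction, with log2 fold changes from -1.41 to -1.18 in Kmt2a+/LSL against Kmt2a+/+, 1.23 to 1.44 in nes-cre+/-Kmt2a+/LSL against Kmt2a+/LSL, 0.055 to 0.22 in nes-cre+/- against Kmt2a+/+, -0.14 to -0.0094 for the LSL allele under Cre, -1.46 to -1.24 against the mean of the other genotypes and 1.1 to 1.33 for the difference of the LSL effects. The GC content offset shifted the median log2 fold change of all genes by 0.109 in the comparison where it shifted most.

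Counts of genes called moved with the tool. For Kmt2a+/LSL against Kmt2a+/+ they were 7 with DESeq2, 2 with voom and 1 with the GC content offset. Without Kmt2a+/+ replicate 1, DESeq2 called 21 and the robust fit 1, and leaving out 1 library at a time with edgeR gave 0 to 2, with any call only when it was Kmt2a+/+ replicate 1. For nes-cre+/-Kmt2a+/LSL against Kmt2a+/LSL the counts were 7 with DESeq2, 2 with voom, 1 with the offset, 7 and 1 without that library, and 0 to 1 over the libraries left out, again with the call without Kmt2a+/+ replicate 1. For nes-cre+/- against Kmt2a+/+ they were 3 with DESeq2, and 5 (DESeq2) and 1 (robust) without it. For the LSL allele under Cre they were 3 with DESeq2 and 5 without that library. Against the mean of the other genotypes, where the reported fit called 1, they were 4 with DESeq2, 4 with voom, 8 (DESeq2) and 2 (robust) without it, and 0 to 2 over the libraries left out, with 0 for all but Kmt2a+/+ replicates 1 (2 genes) and 3 (1 gene). For the difference of the LSL effects they were 10 with DESeq2, and 7 without it. The causes were not tested.

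Values that turned sign were as follows. With voom they were, in Kmt2a+/LSL against Kmt2a+/+, -0.012 for Insr, -0.083 for Igfbp2 and 0.076 for Nedd4. In nes-cre+/-Kmt2a+/LSL against Kmt2a+/LSL they were 0.083 for Igfbp2 and 0.029 for Igfbp5. In nes-cre+/- against Kmt2a+/+ they were -0.035 for Insr, -0.055 for Igf1r, -0.013 for Irs2, -0.056 for Igfbp2 and 0.074 for Nedd4. Against the mean of the other genotypes they were -0.064 for Igfbp2 and 0.062 for Nedd4, and in the difference of the LSL effects 0.14 for Igfbp2, 0.0020 for Igfbp5 and -0.18 for Nedd4. For nes-cre+/- against Kmt2a+/+, DESeq2 size factors gave -0.0077 for Insr and -0.0057 for Igf1r, and the Wald test -0.0078 and -0.0066. The GC content offset gave -0.0066 for Insr, -0.049 for Igf1r and -0.37 for Irs2 there, 0.078 for Igfbp2 and 0.018 for Igfbp5 in nes-cre+/-Kmt2a+/LSL against Kmt2a+/LSL, and 0.046 for Igfbp2 in the difference of the LSL effects.

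Leaving out 1 library at a time gave these ranges where a sign changed. In Kmt2a+/LSL against Kmt2a+/+: Insr -0.036 to 0.093, Irs1 -0.27 to 0.16, Irs2 -0.20 to 0.33, Igfbp2 -0.27 to 0.84 and Nedd4 -0.37 to 0.10. In nes-cre+/-Kmt2a+/LSL against Kmt2a+/LSL: Grb14 -0.20 to 0.032, Igfbp2 -0.15 to 0.18, Igfbp5 -0.084 to 0.077 and Nedd4 -0.18 to 0.050. In nes-cre+/- against Kmt2a+/+: Insr -0.013 to 0.080, Igf1r -0.083 to 0.092, Irs1 -0.036 to 0.39, Irs2 -0.15 to 0.39, Igfbp2 -0.31 to 0.80, Igfbp5 -0.054 to 0.34 and Nedd4 -0.36 to 0.11. For the LSL allele under Cre: Irs1 -0.0064 to 0.23, Irs2 -0.028 to 0.14, Igfbp2 -0.11 to 0.22 and Nedd4 -0.19 to 0.039. Against the mean of the other genotypes: Insr -0.077 to 0.024, Irs2 -0.13 to 0.059, Igfbp2 -0.069 to 0.30 and Nedd4 -0.11 to 0.049. In the difference of the LSL effects: Insr -0.0036 to 0.12, Irs1 -0.013 to 0.41, Irs2 -0.28 to 0.24, Igfbp2 -0.82 to 0.28, Igfbp5 -0.35 to 0.031 and Nedd4 -0.16 to 0.32.

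Replicate numbers were not used to pair the samples in the reported fit. Deviations from the genotype mean had a mean correlation of 0.0844 (from -0.0717 to 0.416) over 18 same-numbered pairs of libraries. Of 12 libraries, 6 correlated best with their own number. The mean over 36 other pairs was -0.0407, which is no separate reference, since the deviations sum to 0 within each genotype. These values do not settle whether same-numbered libraries belong together. With the replicate block, edgeR called 0 genes in all 6 comparisons, against the 1 gene, Grb10, of the reported fit. The block turned Irs2 to 0.022 in Kmt2a+/LSL against Kmt2a+/+ and Igfbp2 to -0.051 for the LSL allele under Cre.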
